A study of Mus musculus with 8 samples.

Results

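Fat cells take up fatty acids in a short chain of steps, and 9 genes of that chain are described here in the fat of mice on a high-fat diet, with and without a human interleukin-37 transgene. The members were Lpl, Gpihbp1, Angptl4, Vldlr, Cd36, Slc27a1, Fabp4, Fabp5 and Acsl1, taken by symbol, with the probe set of highest mean over all arrays kept for each gene. Of these 9 genes, 8 were measured, among 18820 genes in all. Acsl1, the acyl-CoA synthetase that traps fatty acids inside the fat cell, had no probe set under its own symbol in the annotation used and was not analysed here. The values are log2 expression levels from 8 single-colour arrays of epididymal white fat, the visceral pad beside the testis, 1 array per sample.

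4 arrays came from wild-type male C57BL/6 mice bought from a commercial breeder, and 4 from male IL37-overexpressing transgenic mice on the same background. IL-37 is a human cytokine of the IL-1 family that restrains innate inflammation. The labels do not name the promoter that drives the transgene, and they do not say that the wild-type mice were littermates, so genotype and colony cannot be told apart. Both groups ate a low-fat diet (10% of energy from fat) for 2 weeks and then a high-fat diet (45% of energy from fat) for 16 weeks. No group kept on low-fat diet was among the samples, so every value describes fat after high-fat feeding, and no body or fat weights were used here. Whether the replicates were different animals is not stated, and if they were not, the p-values cover technical spread alone. The number of arrays limits the precision.

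As background, lipoprotein lipase (Lpl) cuts the triglycerides of circulating lipoproteins at the wall of the capillary, where Gpihbp1 carries and anchors it. Angptl4 inactivates the lipase, and the receptor Vldlr binds triglyceride-rich lipoproteins and helps the lipase reach them. Freed fatty acids cross the plasma membrane with the help of Cd36 and Slc27a1, are carried in the cytosol by Fabp4 and Fabp5, and are trapped as acyl-CoA. Many of these genes are classical targets of PPAR-gamma, the master transcription factor of the fat cell, and Cd36, Lpl, Fabp4 and Fabp5 are also used by fat-laden macrophages.

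None of the 8 measured genes passed the test between transgenic and wild-type fat (limma, Benjamini-Hochberg adjusted over all 18820 genes, threshold 0.05), where 3.34% of all genes passed, 2.07% as higher and 1.27% as lower in transgenic fat. At an unadjusted p of 0.05 the count was 2 of 8, Vldlr and Gpihbp1, against 20.6% of all genes. In 1 of the 8, Vldlr, the groups did not overlap, against 14.0% of all genes, 8.24% higher and 5.73% lower. The median difference of the 8 genes was -0.05 log2 units, beside 0.02 over all genes, and their median size of difference was 0.07 beside 0.11. Fewer cells of a type and less RNA per cell cannot be told apart in whole tissue, here and in every result below.

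**Figure D1:**
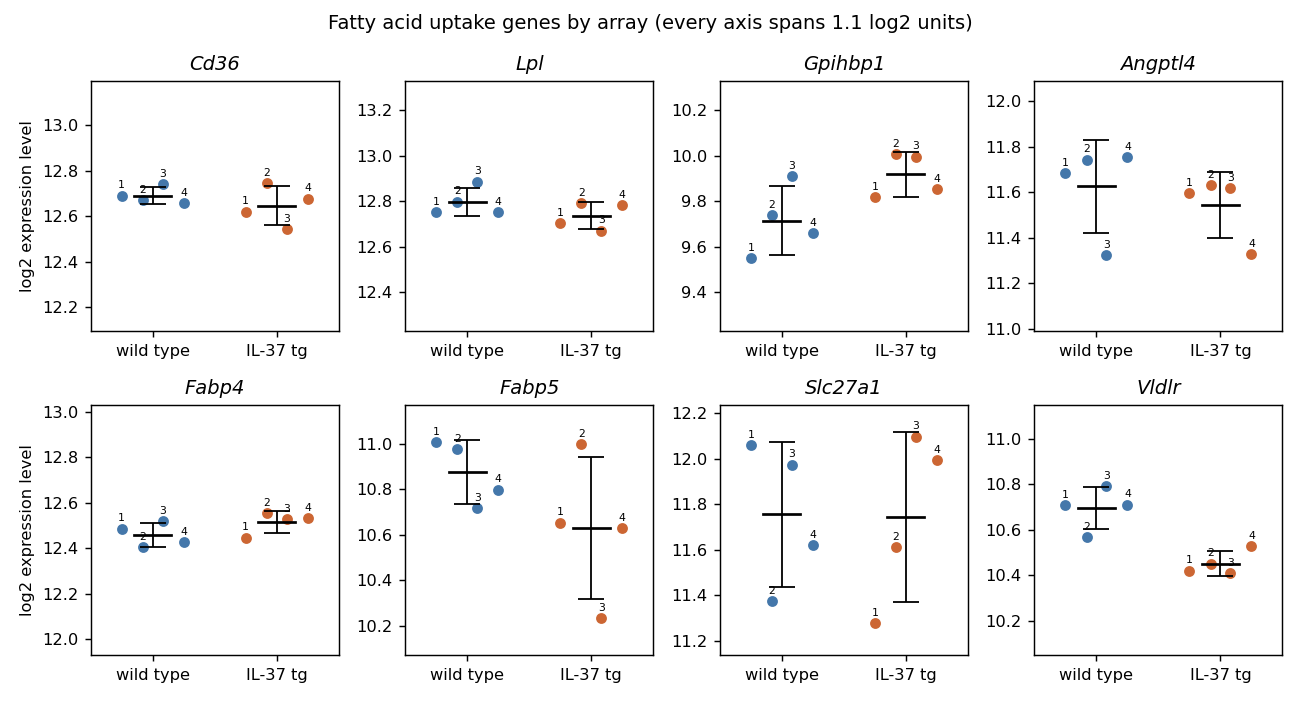
Log2 expression level (vertical axis) of the 8 measured genes in each of the 4 wild-type and 4 IL-37 transgenic arrays, numbered by replicate, with the mean and SD of each group as bars. Vldlr alone has groups that do not overlap, Cd36, Lpl and Fabp4 vary little between arrays, and Slc27a1 varies most.

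Vldlr, the receptor of triglyceride-rich lipoproteins, came nearest to a call. Its wild-type levels were 10.71, 10.57, 10.79 and 10.71 and its transgenic levels 10.42, 10.45, 10.41 and 10.53. Every transgenic array was below every wild-type array, and the nearest pair was wild-type replicate 2 and transgenic replicate 4. The means were 10.70 ± 0.09 and 10.45 ± 0.05 (SD, n = 4 per group), a difference of -0.24 (SE 0.06, 95% interval -0.39 to -0.10), which is 1.18-fold lower (limma adjusted p = 0.0773). The call turned on the setting: the adjusted p was 0.0328 among genes at or above the median gene, 0.0461 with a trended and robust prior and 0.0428 with array weights, and from 0.0803 to 0.188 on removal of each array in turn. It was 0.178 with the digit of the array name as a block. With the letter as a block Vldlr did not pass, at a difference of -0.33. That contrast rests on wild-type replicates 3 and 4 and transgenic replicate 1, since no other letter held both groups. Without the 2 arrays whose names end in 2, both transgenic, the difference was -0.22 (limma adjusted p = 0.291). Vldlr passed in 3 of 21 alternatives in all.

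The genome sequence just before a RefSeq start site of Vldlr is shown because this was the gene whose groups separated, with that of Cd36, a brightly expressed PPAR-gamma target whose groups did not. Both are from RefSeq (build GRCm38.p6). The Vldlr stretch lies at chr19:27216234-27216483 on the forward strand, and the Cd36 stretch at chr5:17835897-17836146 on the reverse strand, before a start site inside the annotated span of Cd36 (chr5:17781690-17888959). Both are written 5′ to 3′ and end 1 base before the start site, with matches of the PPAR recognition core AGGTCA, or TGACCT on the other strand, in capitals.
Vldlr: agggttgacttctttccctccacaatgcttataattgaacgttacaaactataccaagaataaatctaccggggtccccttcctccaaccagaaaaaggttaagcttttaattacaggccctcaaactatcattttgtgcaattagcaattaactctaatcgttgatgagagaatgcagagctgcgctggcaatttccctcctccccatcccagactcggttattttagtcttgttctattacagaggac
Cd36: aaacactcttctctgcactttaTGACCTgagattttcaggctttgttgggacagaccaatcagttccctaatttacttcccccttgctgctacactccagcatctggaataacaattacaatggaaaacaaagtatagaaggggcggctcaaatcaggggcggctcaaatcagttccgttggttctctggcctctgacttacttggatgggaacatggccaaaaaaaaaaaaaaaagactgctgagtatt
The Cd36 stretch holds 1 match, TGACCT, from 228 to 223 bases before the start site, and the Vldlr stretch holds none. Of 32851 stretches of this kind and of the same length, 14.0% hold a match on either strand. The core of the hypoxia response element, ACGTG or CACGT, was in neither stretch and in 16.6% of all. A match is a description of letters and not of a bound site. Among the 9 genes, such sequences were at hand for Cd36, Slc27a1, Acsl1 and Vldlr.

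At the capillary wall, Gpihbp1, which carries the lipase across the endothelium and holds it there, had the larger of the 2 differences above 0. Its wild-type levels were 9.55, 9.74, 9.91 and 9.66 and its transgenic levels 9.82, 10.01, 10.00 and 9.85. Wild-type replicate 3 lay inside the transgenic range, so the groups overlapped. The means were 9.71 ± 0.15 and 9.92 ± 0.10 (SD, n = 4), a difference of 0.20 (SE 0.09, 95% interval 0.00 to 0.41; limma adjusted p = 0.241).

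Lpl, the lipase itself, had wild-type levels of 12.75, 12.80, 12.89 and 12.75 and transgenic levels of 12.70, 12.79, 12.67 and 12.78. Transgenic replicates 2 and 4 lay inside the wild-type range and the other two just below it. The difference was -0.06 (SE 0.06; limma adjusted p = 0.589), and its 95% interval, -0.19 to 0.07, spans ratios of transgenic to wild type from 0.876 to 1.05.

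Angptl4, the lipase inhibitor that rises in fasting fat, had wild-type levels of 11.68, 11.74, 11.32 and 11.76 and transgenic levels of 11.60, 11.63, 11.62 and 11.33. Each group held 3 close arrays and 1 low array, wild-type replicate 3 and transgenic replicate 4. The difference was -0.08 (SE 0.12, 95% interval -0.35 to 0.18; limma adjusted p = 0.723), and it was -0.11 with both low arrays left out (limma adjusted p = 0.352).

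At the cell surface, Cd36, the fatty acid translocase, had wild-type levels of 12.69, 12.67, 12.74 and 12.66 and transgenic levels of 12.62, 12.74, 12.55 and 12.68. Transgenic arrays were both the highest, by less than 0.01, and the lowest, so the wild-type range lay inside the transgenic one. The difference was -0.04 (SE 0.06, 95% interval -0.18 to 0.09; limma adjusted p = 0.716).

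Slc27a1 (fatty acid transport protein FATP1), which couples uptake to acyl-CoA formation, was the least steady of the 8 between arrays of 1 group. Its wild-type levels were 12.06, 11.37, 11.97 and 11.62 and its transgenic levels 11.28, 11.61, 12.10 and 11.99. Both groups ran over nearly the same span, with wild-type replicate 2 and transgenic replicate 1 lowest. The difference was -0.01 (SE 0.21; limma adjusted p = 0.983), and its 95% interval, -0.51 to 0.48, leaves ratios from 0.705 to 1.40, so these arrays say little about it. The pooled SD within groups was 0.35, larger than that of 90.3% of all genes. The sign turned on removal of wild-type replicate 1 (0.09) or 3 (0.06) or of transgenic replicate 1 (0.14) or 2 (0.03).

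In the cytosol, Fabp4, the abundant fatty acid binding protein of fat cells also called aP2, was the steadiest of the 8. Its wild-type levels were 12.49, 12.41, 12.52 and 12.43 and its transgenic levels 12.45, 12.56, 12.53 and 12.53. Transgenic replicate 1 lay inside the wild-type range and the other transgenic arrays just above it. The difference was 0.06 (SE 0.05, 95% interval -0.06 to 0.18; limma adjusted p = 0.583).

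Fabp5, the epidermal type of the same family, found in macrophages and capillaries as well as fat cells, had wild-type levels of 11.01, 10.98, 10.72 and 10.80 and transgenic levels of 10.65, 11.00, 10.24 and 10.63. Transgenic replicate 3 was the lowest array and transgenic replicate 2 reached the top of the wild-type range. The difference was -0.25 (SE 0.15, 95% interval -0.60 to 0.10; limma adjusted p = 0.404), close in size to that of Vldlr, whose standard error was 0.06. Fabp5 was the only one of the 8 with more than 1 probe set. Its 3 probe sets differed by -0.25, -0.24 and -0.10, and the last of them was dim, with a wild-type mean of 5.12 and a transgenic mean of 5.01.

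What the design could detect differed between these genes. At the standard errors seen, a gene passed when its difference reached 4.59 standard errors (an unadjusted p of 0.00167). That was 0.24 log2 units for Fabp4, 0.26 for Lpl, 0.27 for Cd36 and 0.29 for Vldlr, or 1.18- to 1.22-fold. It was 0.40 for Gpihbp1, 0.53 for Angptl4, 0.70 for Fabp5 and 0.99 for Slc27a1, the last of these 1.98-fold. Lpl, Cd36 and Fabp4 were among the brightest genes on the arrays, at the 99.96th, 99.93rd and 99.84th percentile of gene means. Microarray signal can flatten near the top of its range, and no saturation flags were used here.

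**Figure D2:**
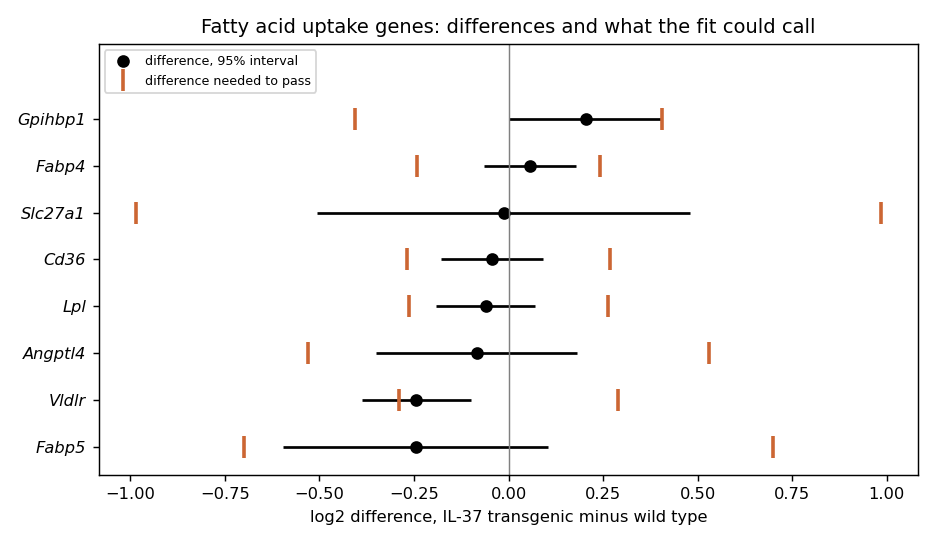
Log2 difference, transgenic minus wild type (horizontal axis), of the 8 genes with its 95% interval, and in orange the size at which each gene would have passed at its own standard error. Vldlr lies closest to its mark, at -0.24 against 0.29, and the mark of Slc27a1 lies farthest out, at 0.99.

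The genes around this chain were described from 7 lists of 87 genes, of which 80 were measured. Acss3 was the only 1 to rise and Hif1a the only 1 to fall, 2.50% of the lists beside 3.34% of all genes. The median difference over the lists was 0.04 log2 units.

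Acss3, a mitochondrial synthetase that activates short-chain acids such as propionate, had wild-type levels of 9.06, 9.08, 9.28 and 9.20 and transgenic levels of 9.75, 9.96, 9.76 and 9.73. The groups stood well apart, by more than the spread within either. It rose by 0.65 (SE 0.08, limma adjusted p = 0.00835), and it passed whichever array was left out (adjusted p from 0.00888 to 0.0355). With the digit of the array name as a block the limma adjusted p was 0.0401. With the letter, which rests on the same few arrays as for Vldlr, the difference was 0.51 and the call was lost. The other 8 acyl-CoA synthetases measured did not pass, among them 3 of the same family as Acsl1: Acsl4 (-0.17, limma adjusted p = 0.314), Acsl5 (-0.09, limma adjusted p = 0.641) and the dim Acsl6 (0.16, limma adjusted p = 0.325).

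Hif1a, the oxygen-sensing transcription factor, had wild-type levels of 10.99, 11.02, 11.04 and 11.12 and transgenic levels of 10.80, 10.64, 10.56 and 10.72. The groups did not overlap. It fell by 0.36 log2 units (SE 0.07, limma adjusted p = 0.0333), and the call was lost on removal of any of 6 arrays, all but wild-type replicate 3 and transgenic replicate 1. It was lost also with the digit of the array name as a block (limma adjusted p = 0.0894). With the letter, which rests on the same few arrays as for Vldlr, the difference was -0.28 and the call was lost. Of the other 13 transcription factor genes measured none passed. Cebpa, a partner of PPAR-gamma in fat cells, differed by 0.42 (limma adjusted p = 0.0507), Pparg by 0.22 (limma adjusted p = 0.0834) and Rxra, its dimer partner, by 0.24 (limma adjusted p = 0.0815), each with groups that did not overlap. Ppargc1a, a coactivator of PPAR-gamma, had the difference of largest size in the list, -0.58 (limma adjusted p = 0.206), with groups that overlapped. Of the 14 genes 9 differences were above 0 and 5 below, and the groups did not overlap in 4 higher and 1 lower, beside 14.0% of all genes.

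Of 16 genes that mature, carry or block the lipase and its lipoprotein ligands, none passed. Pcsk6, a proprotein convertase, differed by 0.73 (limma adjusted p = 0.0509) and Sort1, the sorting receptor sortilin, by 0.26 (limma adjusted p = 0.0644), both with all 4 transgenic arrays above all 4 wild-type arrays. The groups did not overlap in 4 of the 16 as higher and in 1 as lower, beside 14.0% of all genes. Of 8 lipoprotein receptor genes none passed, with Scarb1, the receptor of high-density lipoprotein, at -0.26 (limma adjusted p = 0.209) and Lrp1 at -0.22 (limma adjusted p = 0.370).

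None of the other 5 fatty acid transport proteins passed, with Slc27a3 at 0.28 (limma adjusted p = 0.227) and Slc27a2 at -0.63 (limma adjusted p = 0.694). Both lay below the median gene, at the 38.95th and 44.96th percentile of gene means. Slc27a2 ran from 5.41 to 7.97 in wild-type and from 5.09 to 7.97 in transgenic fat, a spread within groups that was larger than the difference. Of 13 other fatty acid or acyl-CoA binding proteins none passed, the lowest p being those of Acbd3 (-0.24, limma adjusted p = 0.138) and the dim Fabp12 (0.21, limma adjusted p = 0.143). Of 15 genes of caveolae, the membrane pits where Cd36 sits, and of its trafficking none passed. Above 0 were 12 of the 15 differences, where the median over all genes was 0.02. The groups did not overlap in 5 higher and 1 lower, beside 14.0% of all genes, 8.24% higher and 5.73% lower. Dlc1 differed by 0.31 (limma adjusted p = 0.0592) and Pacsin2, which shapes caveolae, by -0.19 (limma adjusted p = 0.0748).

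**Figure D3:**
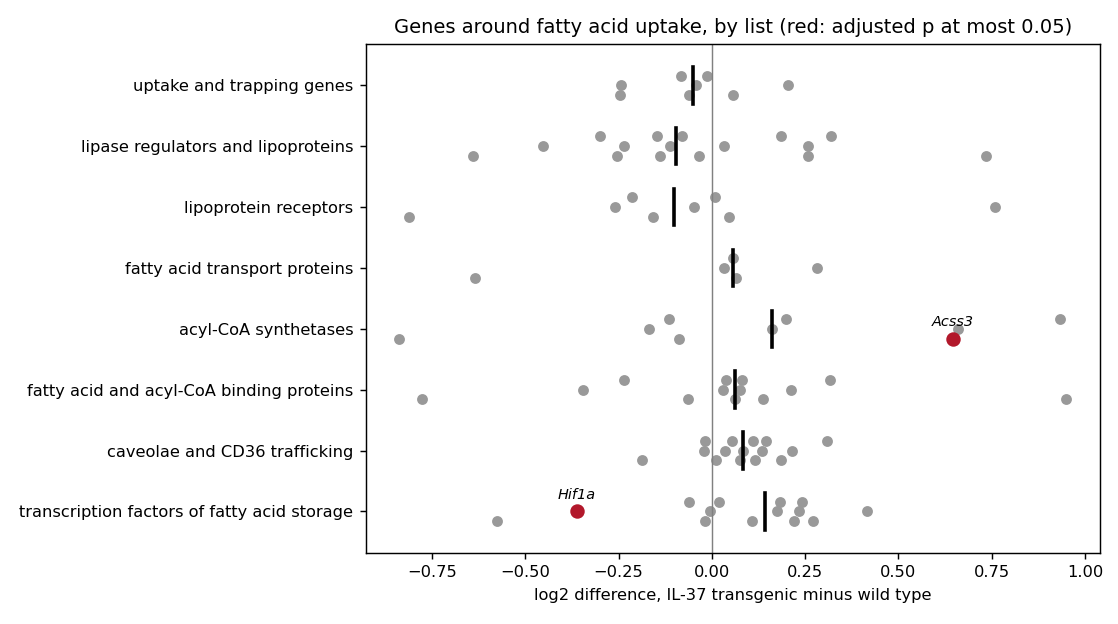
Log2 difference, transgenic minus wild type (horizontal axis), of each measured gene (points) in the uptake and trapping set and in 7 lists of genes around it, with the median of each list as a black bar. Acss3 at 0.65 and Hif1a at -0.36, in red, are the genes with an adjusted p at or below 0.05.

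The cells of the pad were followed with marker lists, since uptake genes are shared by fat cells, capillary cells and macrophages. The mean of 11 adipocyte genes ran from 12.26 to 12.35 in wild-type and from 12.36 to 12.43 in transgenic fat, with Adipoq (adiponectin) higher by 0.30 (limma adjusted p = 0.0309) as the only call. The lipid droplet genes Plin1 (0.11, limma adjusted p = 0.276) and Cidec (0.10, limma adjusted p = 0.297) did not pass, and of the 11 differences 8 were above 0 and 3 below, those of Gpd1 (-0.18), Lep (-0.06) and Dgat2 (-0.05). The mean of 15 endothelial genes ran from 9.54 to 9.69 and from 9.60 to 9.79, with Rgcc higher by 0.46 (limma adjusted p = 0.0485) and Pecam1, Cdh5 and Tek not passing. Of the 15 endothelial differences 12 were above 0 and 3 below, the lowest at -0.47. The groups did not overlap in 2 higher and 1 lower, beside 14.0% of all genes. The mean of 15 macrophage genes ran from 9.53 to 10.37 and from 9.34 to 9.73, with Fcgr1 lower by 1.09 log2 units and Cd163 higher by 0.77 (limma adjusted p = 0.0469 and 0.0212). Of the 15 differences 13 were below 0 and 2 above. The groups did not overlap in 2 lower and 1 higher, beside 14.0% of all genes. Cd68 (-1.11, limma adjusted p = 0.075), Adgre1 (-0.79, limma adjusted p = 0.163) and Csf1r (-0.32, limma adjusted p = 0.271) did not pass. The mean of 11 genes of lipid-associated macrophages, the foamy cells around dying fat cells, ran from 9.07 to 10.39 and from 7.94 to 9.09, with Trem2 (-2.02, limma adjusted p = 0.0454) and Ctsk (-1.25, limma adjusted p = 0.0496) lower. Of these 11 differences 10 were below 0 and 1 above. The groups did not overlap in 6, all lower, beside 14.0% of all genes, 5.73% lower. Gpnmb (-2.04, limma adjusted p = 0.0704) and Cd9 (-0.55, limma adjusted p = 0.146) did not pass. Of the marker calls, that of Rgcc was lost on removal of any array, those of Adipoq, Fcgr1, Trem2 and Ctsk on removal of any of 7, that of Acta1 on removal of any of 5 and that of Cd163 on removal of any of 4. All 7 were lost with the digit of the array name as a block (limma adjusted p from 0.0541 to 0.128). They were lost also with the letter, a contrast that rests on wild-type replicates 3 and 4 and transgenic replicate 1 alone. Lymphocyte, mesothelial and fibroblast lists of 9, 8 and 10 measured genes had none past the threshold. Of the lymphocyte differences 3 were above 0 and 6 below, and the groups did not overlap in 1 gene, higher. Of the fibroblast differences 6 were above 0 and 4 below, and the groups did not overlap in 2 genes, both lower. The share over all genes was 14.0%. All 8 mesothelial genes were above 0 in their difference, and their mean ran from 7.53 to 8.41 in wild-type and from 7.97 to 8.65 in transgenic fat, a difference of 0.36. In all 8 the groups overlapped. The 10 genes of epididymis and muscle had means from 4.60 to 4.75, though Acta1 was higher by 0.72 (limma adjusted p = 0.0206).

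Gpihbp1 was set beside the endothelial list. Wild-type replicate 3 had the highest endothelial mean of its group (9.69) and the highest Gpihbp1 (9.91), and wild-type replicates 1 and 2 had the lowest endothelial means (9.56 and 9.54), although Gpihbp1 in replicate 2 (9.74) was the second highest of its group. Transgenic replicates 3 and 2 had the highest endothelial means (9.79 and 9.72) and the highest Gpihbp1 (10.00 and 10.01). The endothelial mean was itself 0.095 higher in transgenic fat, so a scale relative to it lowers every difference by that much, and that of Gpihbp1 from 0.20 to 0.11.

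Angptl4 and Fabp5 were set beside the macrophage lists. The 2 arrays with low Angptl4 were those with the lowest macrophage means of their groups, 9.53 in wild-type replicate 3 and 9.34 in transgenic replicate 4, against 10.05 to 10.37 and 9.71 to 9.73 in the others. Among the other wild-type arrays the order did not hold: replicate 4 had the highest Angptl4 (11.76) and the lowest macrophage mean among them (10.05). In wild-type fat Fabp5 was higher in replicates 1 and 2, whose lipid-associated means were 10.30 and 10.39, than in replicates 3 and 4, at 9.07 and 9.86. In transgenic fat the order differed: replicate 4 had the lowest lipid-associated mean (7.94) and replicate 3 the lowest Fabp5. The part of these cells in the differences of Gpihbp1, Angptl4 and Fabp5 was not tested.

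**Figure D4:**
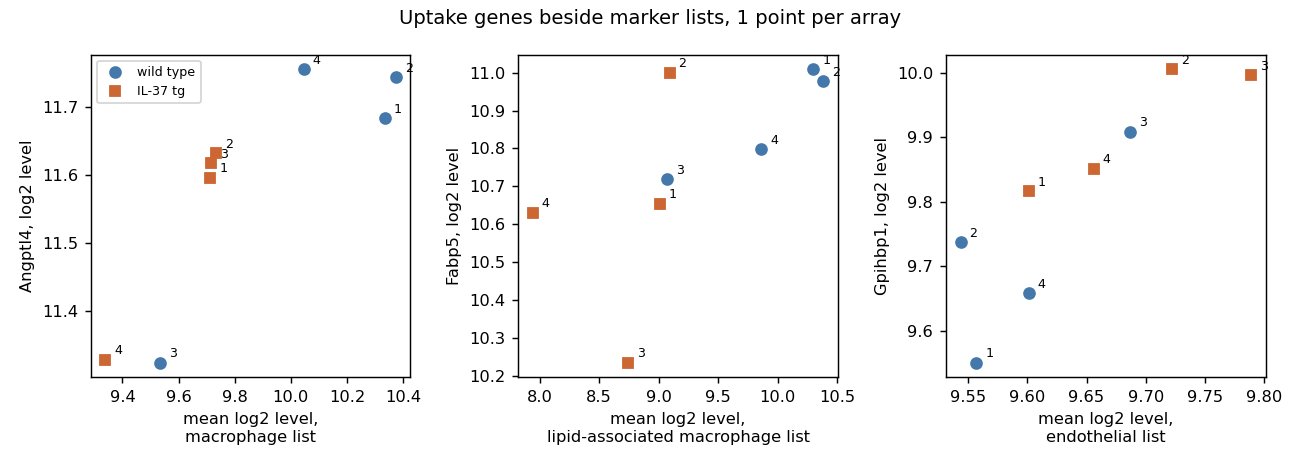
Log2 level of Angptl4, Fabp5 and Gpihbp1 (vertical axes) against the mean log2 level of the macrophage, lipid-associated macrophage and endothelial lists (horizontal axes), 1 point per array, numbered by replicate. Wild-type replicate 3 and transgenic replicate 4 are lowest in both Angptl4 and the macrophage mean, and Gpihbp1 runs from 9.55 to 10.01 over endothelial means from 9.54 to 9.79.

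The genes whose levels followed each of the 8 most closely over the 8 arrays were taken from 9238 others at or above the median gene, by Pearson correlation of log2 levels, as a description and with no test. All arrays share 1 normalisation, and with so many genes compared high values arise readily. Gpihbp1 was closest to Rgs5 (r = 0.98), a gene of pericytes, and to Sox7 (r = 0.97), an endothelial transcription factor, and Fabp4 to Apex2 (r = 0.98) and to Ppara (r = 0.97), the PPAR of fatty acid oxidation. Angptl4 was closest to the chemokine gene Ccl6 (r = 0.98) and to the collagen receptor gene Ddr2 (r = 0.97), and without its 2 low arrays r was 0.79 and 0.94. Vldlr was closest to Armh3 (r = 0.98) and Kidins220 (r = 0.98), Fabp5 to Srrt (r = 0.97) and Nup205 (r = 0.96), and Slc27a1 to Shroom3 (r = 0.96) and Ormdl3 (r = 0.94). Cd36 was closest to Xpo4 (r = 0.95) and B2m (r = 0.95), and Lpl to Ppp1cc (r = 0.95) and Itm2b (r = 0.94). After each group's mean was taken off, these 16 correlations ran from 0.90 to 0.99, and without the 2 arrays farthest from each member's median from 0.79 to 0.97.

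The adipocyte mean was higher in every transgenic array than in any wild-type array, though narrowly, at 12.36 in transgenic replicate 1 against 12.35 in wild-type replicate 3, and 3 of its 11 genes were lower in transgenic fat. With this in view the levels were also set relative to the mean of the 11 adipocyte genes in each array, a scale chosen after the values were seen. It moved the median of all genes by -0.11, to -0.09, because the adipocyte mean was 0.11 higher in transgenic fat. On this scale Lpl was 0.45, 0.54, 0.54 and 0.49 in wild-type and 0.35, 0.37, 0.28 and 0.35 in transgenic fat, and Cd36 was 0.39, 0.41, 0.39 and 0.40 against 0.27, 0.32, 0.16 and 0.25. Both had lower values in every transgenic array, as did Fabp4 (0.17 ± 0.02 against 0.12 ± 0.02, SD, n = 4) and Vldlr. Of the 8 genes, 4 had groups that did not overlap, all of them lower, beside 16.0% of all genes, 13.0% lower. On the deposited scale only Vldlr had separate groups, and the difference of Fabp4 went from 0.06 to -0.05. The reference itself separated the groups, so a gene that varies little between arrays can separate as lower through it alone. Most genes vary more than these 4, so the share over all genes is no like baseline.

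Of these 4, Vldlr passed on that scale (-0.35, limma adjusted p = 0.0240) and Cd36 (-0.15, limma adjusted p = 0.151), Lpl (-0.17, limma adjusted p = 0.110) and Fabp4 (-0.05, limma adjusted p = 0.563) did not, where 3.98% of all genes passed, 3.03% as lower. With the median of the 11 adipocyte genes in place of their mean, Lpl passed also (-0.24, limma adjusted p = 0.0394), where 13.3% of all genes passed, 12.3% as lower, and the median of all genes lay at -0.16. There the same 4 genes had groups that did not overlap, beside 24.0% of all genes, 22.4% lower. Relative to the endothelial mean 3 did, Cd36, Lpl and Vldlr, beside 11.6% of all genes, 8.98% lower. None of the 8 passed on that scale, where 1.51% of all genes passed, 1.01% as lower, and Vldlr differed by -0.34 (limma adjusted p = 0.0707). The differences and the separated groups on these scales are partly fixed by the choice of reference. A reference that is higher in transgenic fat lowers every other gene.

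**Figure D5:**
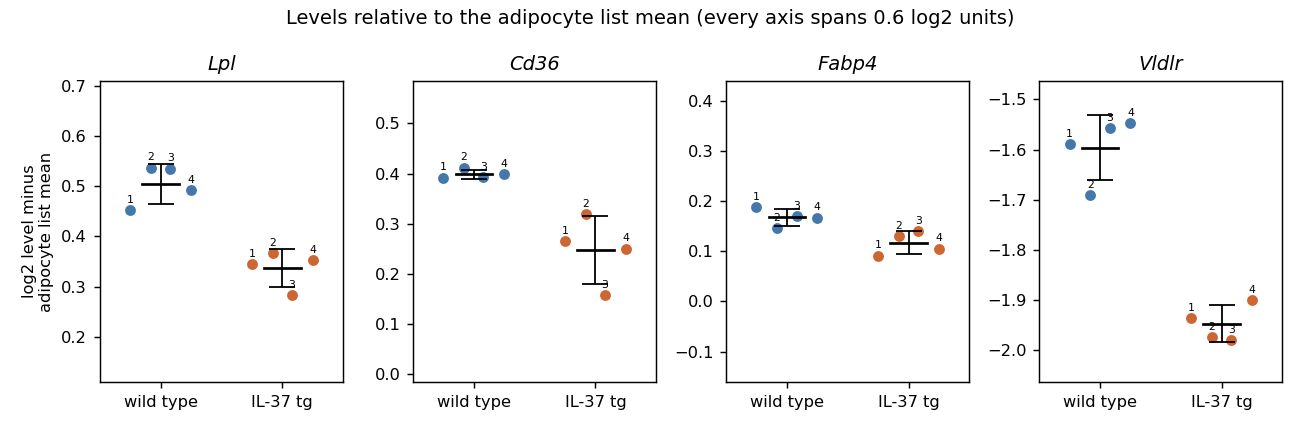
Log2 level of Lpl, Cd36, Fabp4 and Vldlr minus the mean log2 level of 11 adipocyte genes in the same array (vertical axes), by group and replicate, with the mean and SD as bars. In each panel all 4 transgenic arrays lie below all 4 wild-type arrays, and Vldlr is the gene that passed the test on this scale.

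Array names carry a letter and a digit that were spread unevenly over the groups, and the labels do not say whether they mark a batch. Only the letter G held both groups, wild-type replicates 3 and 4 and transgenic replicate 1. Within it Vldlr differed by -0.33, Gpihbp1 by 0.03, Fabp5 by -0.11, Angptl4 by 0.06, Cd36 by -0.08, Lpl by -0.12, Fabp4 by -0.03 and Slc27a1 by -0.52. Within the digits 5, 7 and 9 Vldlr differed by -0.34, -0.30 and -0.10 and Gpihbp1 by 0.10, 0.39 and 0.10, while Fabp5 differed by 0.28, -0.67 and -0.33 and Angptl4 by 0.31, -0.10 and -0.28. Lpl differed by -0.09, -0.08 and -0.06 within them, and Slc27a1 by -0.36, 0.26 and 0.26. The sign of Vldlr is fixed by groups that do not overlap, and Angptl4 and Fabp4 changed sign within the letter G.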

How the data were processed

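The authors deposited log2 expression levels per probe set, 1 column per array, made with RMA per the submitters' processing notes, a method with background correction and quantile normalisation. Version and settings are not given in the sources used here. Per the labels' protocols, RNA was amplified as whole-transcript cDNA and labelled with biotin. Quantile normalisation hides a shift shared by most genes, and probe sets were not screened for detection.

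The table lists 35556 probe sets; 21218 carried 1 gene symbol, 1881 carried several and 12457 carried none; symbols were updated through the Entrez identifier for 21185, with the gene table of GRCm38.p6. The probe set of highest mean was kept for each of 18820 genes. Array medians lay between 5.97 and 6.04, and arrays of 1 group correlated at 0.980 to 0.996 across genes, those of different groups at 0.971 to 0.991. Differences are transgenic minus wild type, fitted by lmFit and eBayes of limma 3.58.1 (R 4.3.3; two-sided, Benjamini-Hochberg over all genes). The fit was tested on simulated data. The members, gene lists and tests were chosen with earlier results of these data known. The genes named are all members, list genes past the threshold or, outside the marker lists, else the 2 of lowest p, and the 2 genes closest to each member. The first 3 measured markers are named for the adipocyte, endothelial and both macrophage lists. Those of the other marker lists were left out, apart from Adam7 and Msln, named for an array that stood apart. Others (Cebpa, Pparg, Rxra, Ppargc1a, Acsl4, Acsl5, Acsl6, Gpd1, Lep, Dgat2) were added after their values were seen. Alternatives covered scaling, filters on dim genes, probe set rules, the prior, array weights, blocks, left-out arrays and the threshold; 3 scalings to marker lists were added after the data were seen. Figures used matplotlib 3.10.9 in Python 3.11.15.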

Additional observations from a re-analysis of the deposited data

Results flagged for a closer look

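Of 114 groups of 4 arrays examined (the 8 uptake genes, the named list genes and the marker list means), 11 (9.65%) held a single array remote from its companions; about 1 in 20 do so by chance. Among the uptake genes this was so for Angptl4 alone, in both groups: wild-type replicate 3 was at 11.32 where the others ran from 11.68 to 11.76, and transgenic replicate 4 was at 11.33 where the others ran from 11.60 to 11.63. Transgenic replicate 4 also stood apart for the macrophage list mean (9.34) and for Adgre1 (9.31).

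Transgenic replicate 3 stood apart for Slc27a2 (7.97, others from 5.09 to 5.51), Adam7 (4.13), Cdh5 (11.61) and the mesothelial list mean (7.97). Transgenic replicate 2 stood apart for Acss3 (9.96, others from 9.73 to 9.76) and the fibroblast list mean (10.27), and wild-type replicate 2 for Msln (7.18).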

How the results depend on the processing

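Over 21 alternatives none of the 8 uptake genes passed as higher. 1 passed as lower, Vldlr in each case, among genes at or above the median gene, with the trended and robust prior and with array weights. Outside these 21, Vldlr passed also at a threshold of 0.1, and relative to the adipocyte list 1 gene passed with its mean and 2 with its median. The sign of Angptl4 (0.0565) and Fabp4 (-0.0251) turned with the letter of the array name as a block, and that of Slc27a1 with the number as a block (0.0896) and on removal of single arrays (-0.14 to 0.14). Relative to marker lists Fabp4 also turned, to -0.0506 (adipocyte mean), -0.119 (adipocyte median) and -0.0384 (endothelial mean).

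Counts over all genes, 390 higher and 239 lower, moved widely. They were 741 and 554 among genes at or above the median gene, 724 and 539 with array weights, 40 and 53 with the replicate block, 10 and 60 with the letter and 44 and 28 with the number as a block, 13 and 5 without the arrays whose names end in 2, 43 and 26 at a threshold of 0.01 and 857 and 680 at 0.1. Without wild-type 3 and transgenic 4, 491 were lower. On removal of single arrays they ran from 50 to 520 and from 32 to 668. Relative to the adipocyte mean they were 178 and 571, to its median 185 and 2323, and to the endothelial mean 94 higher. Causes were not tested. Arrays with the same replicate number deviated together only weakly (r = 0.09, 0.10, 0.09 and 0.06). Not every array was closest to its own replicate number, so the replicate block is no pairing known from the design. No uptake gene passed with it (Vldlr adjusted p = 0.171), and the calls of Acss3 (0.0658), Hif1a (0.1004) and the 7 marker genes (0.0897 to 0.117) were lost.

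The number of arrays and the bright signal of Cd36, Lpl and Fabp4 limit these results.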
